A study of Mus musculus with 8 samples.

Results

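H3K4me3 regions that were present in mouse germline stem cells at both culture ages, but were narrower after long culture, are described here. Merging overlapping peaks (1 bp or more) of the 4 H3K4me3 libraries gave 54585 regions. A region was kept when all 4 libraries had a peak in it, no H3K27me3 peak of any library overlapped it, and both libraries of 60M cells covered fewer bases than both libraries of 5M cells. Regions that held a single peak of 5 kb or more in all 4 libraries were left out. This left 754 of 29639 regions that met the other conditions, or 2.54%. Over all 35229 regions with a peak in all 4 libraries, 878 (2.49%) were narrower at 60M, of which 112 overlapped H3K27me3 and 12 were broad. Members were thus chosen by their covered length, which is given as a description and was not tested.

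Chromatin was precipitated with an antibody against H3K4me3 or H3K27me3, with 2 libraries for each mark and age. 5M and 60M cells were germline stem cells of testis origin, kept for about 5 and 60 months in one medium with FGF2, GDNF and serum. Both came from Green mice, the C57BL/6 line Tg14(act-EGFP)OsbY01 on a DBA/2 background, labelled wild type, so cells of both ages carry the EGFP transgene. Whether replicate libraries stem from different cultures is not given in the labels, and their spread, and any p-value based on it, may be purely technical. The H3K4me3 lists held 41637 to 47415 peaks, without read totals, so depth is unknown. No annotation or genome sequence of the build of the positions was used. Regions are therefore named by position, and neither genes, exons, introns nor marker genes of the cells could be looked up.

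Germline stem cells are the cultured form of spermatogonial stem cells, which sustain sperm production through life. H3K4me3 is placed by the SET1 and MLL methyltransferase complexes, mostly on nucleosomes beside transcription start sites with unmethylated CpG islands. The length of an H3K4me3 domain varies between promoters, and long domains are known from genes that define a cell's identity. H3K27me3 is placed by Polycomb repressive complex 2, and at many developmental promoters the 2 marks occur together.

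Most of the narrower regions were stretches of a few kb that were 1 bin of 1 kb shorter at 60M. Their covered length averaged 3.07 and 3.13 kb in 5M libraries 1 and 2, and 1.94 kb in each 60M library. The mean over the 5M libraries was 3.10 ± 0.0403 kb and that over the 60M libraries 1.94 ± 0.00375 kb (SD, n = 2), a difference of 1.16 kb. The ages did not overlap in any member, as the rule requires. The members together covered 2.31 and 2.36 Mb in the 5M libraries and 1.46 and 1.47 Mb in the 60M libraries. No member measured 1 kb in either 5M library, and 280 and 287 did so in the 60M libraries.

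**Figure D1:**
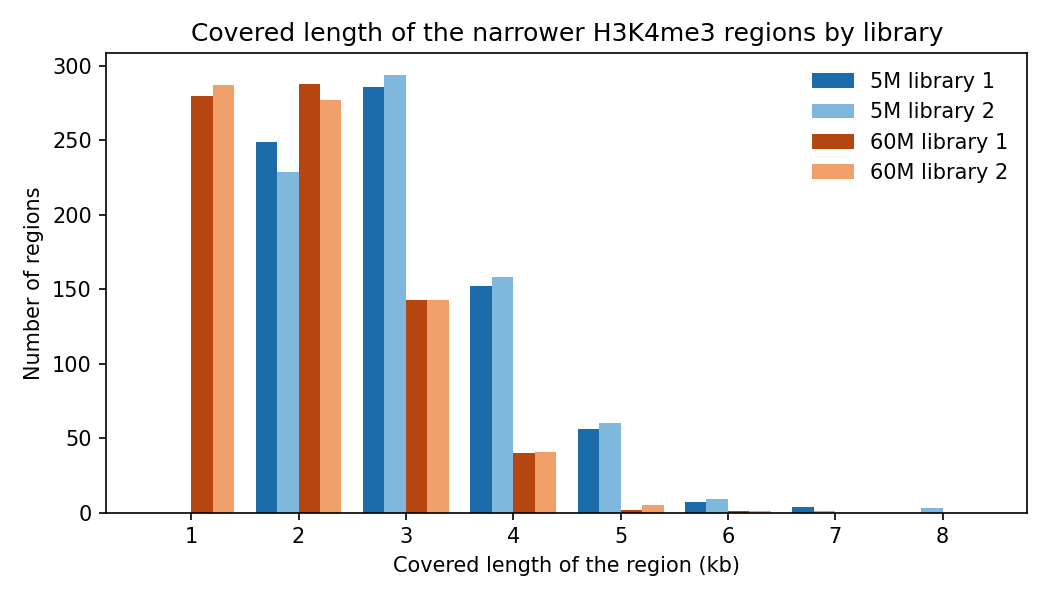
Number of narrower H3K4me3 regions (vertical axis) by covered length in kb (horizontal axis), with 1 bar for each library. The commonest length is 3 kb in both 5M libraries (286 and 294 regions), and 1 or 2 kb in the 60M libraries.

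The size of the loss varied little among members. The mean loss was 1 kb in 605 members (80.2%), 1.5 kb in 85, 2 kb in 49 and 2.5 kb or more in 15. The narrowest 5M library exceeded the widest 60M library by 1 kb in 699 members, by 2 kb in 52 and by 3 kb in 3. Just outside the rule, 2219 regions had a lower mean length at 60M but a 60M library as wide as a 5M library, and in 2096 of these the mean difference was 0.5 kb. Members therefore sit at the resolution of the lists, whose borders move in steps of 1 kb. Replicates gave the same length in 700 members at 5M (92.8%) and in 695 at 60M (92.2%), against 87.2% and 83.9% over all 29639 regions. That agreement follows in part from the rule, since a region whose libraries disagreed met it less easily. In 648 members both ages agreed within themselves. Of these, 230 went from 3 to 2 kb, 229 from 2 to 1 kb, 113 from 4 to 3 kb and 31 from 5 to 4 kb.

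The number of members depended on the libraries and on the step that counted as narrower. With a difference of at least 2 kb, 55 regions were left. Leaving out an H3K4me3 library puts the call for that age on a single list, so the number rises by construction: it was 1558 without 5M library 1 and 987 without 5M library 2. It was 1715 without 60M library 1 and 1507 without 60M library 2. In these 4 settings 752, 746, 751 and 753 of the 754 regions were still called. This too follows from the rule, since leaving out a library cannot undo a member's difference in length. It is therefore no sign of stability.

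The lost bases lay at the ends of the regions and hardly ever inside them. Bins covered in both 5M libraries and in neither 60M library numbered 798 over all members. In 725 members (96.2%) they lay only at an edge, and in 10 (1.33%) a gap opened inside the region. A region of 2 kb has no inside, so its loss counts as an edge by construction. Among the 454 members with at least 3 kb in both 5M and 2 kb in both 60M libraries, 435 (95.8%) lost bins only at an edge and 7 (1.54%) had a gap. The edge with the lower coordinate alone was lost in 367 members and the edge with the higher coordinate alone in 343, which are similar numbers. Both edges were lost in 15. In 675 members 1 bin was lost, in 57 there were 2 and in 3 there were more. In 19 members no bin was covered in both 5M libraries and in neither 60M library. The opposite, a bin gained in both 60M libraries, occurred in 2 members.

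Coverage was also followed bin by bin in each length class. Among 226 members with 1 peak of 2 kb and the same borders in both 5M libraries, the lower bin was covered at 60M in 47.3% (library 1) and 46.9% (library 2), and the upper bin in 52.7% and 53.1%. These shares add up to all members, since the rule leaves 1 of the 2 bins, and show only that neither side was preferred by much. Among 267 members of 3 kb the middle bin was still covered in 95.1% and 93.3%. The outer bins of these 3 kb members were covered in 44.6% and 43.4% on the lower side, and in 50.2% and 50.9% on the upper side. Members of 4 kb (n = 139) kept their inner bins in 89.9% to 95.0%, and their outer bins in 46.0% to 50.4%. The shares of the 2 libraries of 60M cells were close at every position in these classes. This follows in part from the rule, and like shares need not come from the same regions. The strand of transcription was not known for any region, so the lost edge could not be placed upstream or downstream of a start site.

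**Figure D2:**
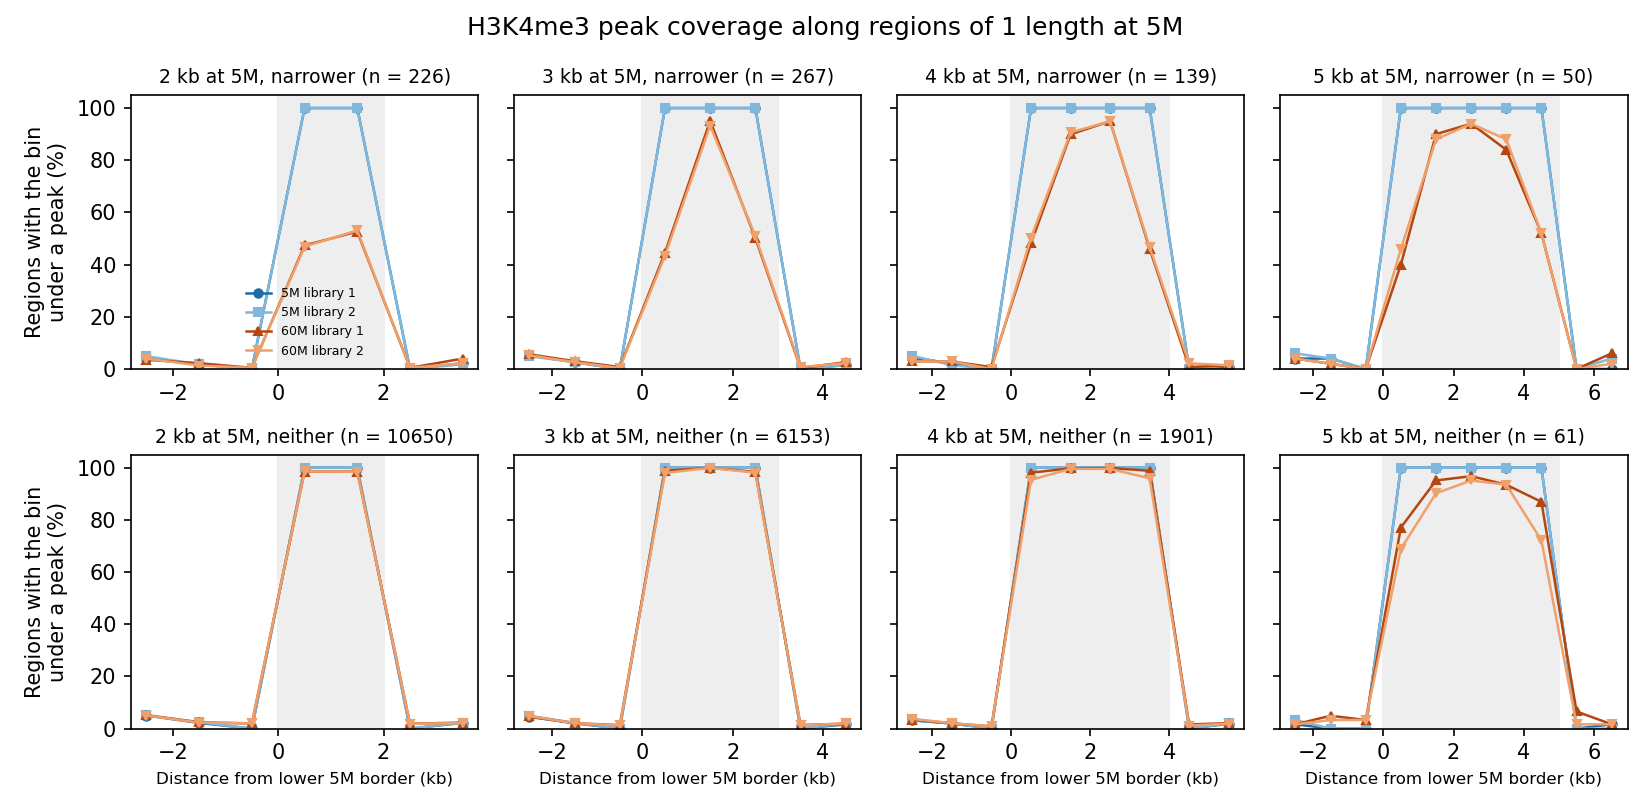
Share of regions whose bin lies under an H3K4me3 peak (vertical axis, %) against distance in kb from the lower 5M border (horizontal axis), for regions with 1 peak of the same borders in both 5M libraries (grey span); 5M points are 100% inside the span by construction. In narrower regions (top) of 3 kb or more the 60M lines stay high in the middle and are lower at both outer bins than in regions neither narrower nor wider (bottom), as in the narrower 3 kb class with 95.1% in the middle and 44.6% and 50.2% outside in 60M library 1. Lower 60M coverage than in the bottom row follows from the rule, which does not set the bin that is lost.

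How often a region was narrower or wider varied with its length, and the order depended on which age set the length class. The classes use lengths that the calls also use, so the shares are a description and support no relation between length and change. Of the 11467 regions of 2 kb in both 5M libraries, 2.00% were narrower at 60M (exact 95% interval 1.75 to 2.27%) and 5.00% wider (4.61 to 5.41%). Of the 6689 regions of 3 kb, 4.07% were narrower (3.61 to 4.57%) and 3.66% wider (3.23 to 4.14%). At 4 kb, 6.56% of 2149 regions were narrower (5.55 to 7.69%) and 3.96% wider (3.17 to 4.87%). The wider share was above the narrower at 2 kb, the intervals overlapped at 3 kb, and the narrower share was above at 4 kb. A region of 1 kb cannot lose a bin and stay listed, and 18.4% of these were wider at 60M. Over all lengths 2019 regions (6.81%) were wider. When regions were classed by their length at 60M instead, the share narrower was 6.75% at 1 kb, 2.26% at 2 kb, 1.87% at 3 kb and 1.55% at 4 kb. The share wider was then 0% at 1 kb, which it must be, 7.14% at 2 kb, 8.40% at 3 kb and 12.5% at 4 kb. The order of the narrower share was the opposite of that by 5M length. That of the wider share was the opposite up to 3 kb only, since from 3 to 4 kb it was higher in both classings. At 5 kb the exclusion of broad regions sets the share: 51 of 134 regions were narrower with it and 51 of 536 (9.51%) without it. Intervals treat regions as independent units within these libraries.

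**Figure D3:**
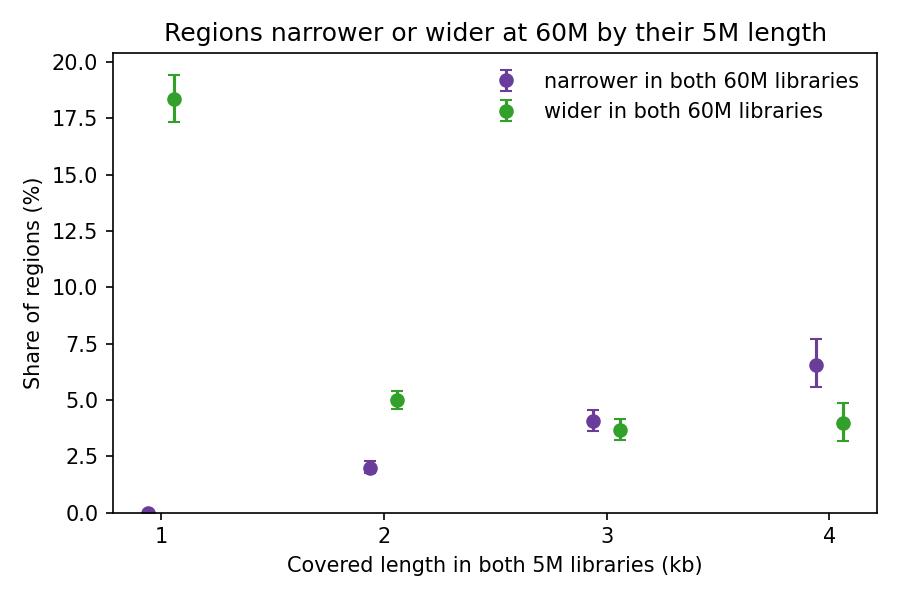
Share of regions narrower (purple) or wider (green) in both 60M libraries (vertical axis, %) by covered length in both 5M libraries (horizontal axis, kb), with exact 95% binomial intervals. The narrower share goes from 2.00% at 2 kb to 6.56% at 4 kb, while the wider share is 18.4% at 1 kb, 3.66% at 3 kb and 3.96% at 4 kb. With classes by 60M length the narrower share falls and the wider share rises with length.

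The narrower regions also ranked lower in signal at 60M. Each peak carries a highest immunoprecipitation signal, a value of the authors whose scaling between libraries is not known. It was therefore ranked among the 29639 regions within each library, as a percentile from 0 to 100. The median rank of the members was 54.8 and 55.3 in the 5M libraries, and 43.8 and 41.3 in the 60M libraries. In 503 members (66.7%) both 60M ranks lay below both 5M ranks, and in 64 (8.49%) both lay above. Over all 29639 regions these shares were 30.8% and 30.2%. The median of the members' signed rank differences, 5M mean minus 60M mean, was 5.76 points. Between single replicate libraries the median absolute difference, an unlike measure, was 1.72 points at 5M and 2.96 at 60M. In bulk chromatin, fewer cells with the mark and less of the mark per cell cannot be told apart. Signal and length come from the same peaks, so this is a description of the members and not independent support for the loss of length. By percentile within the full lists, which differ in length, the mean was 63.3 ± 1.02 at 5M and 51.1 ± 2.24 at 60M (SD, n = 2), a difference of 12.3 points, against 2.19 points over all 29639 regions.

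The lower rank was found mainly in short members. Of the 229 members with 2 kb in both 5M libraries, 197 (86.0%) ranked lower in both 60M libraries, compared with 35.7% of the 10665 regions of that length that were neither narrower nor wider. The shares were 70.6% against 32.0% at 3 kb, 41.1% against 26.5% at 4 kb and 27.5% against 30.7% at 5 kb. The pair at 5 kb is not a like comparison. The 75 other regions of that length passed the exclusion of broad regions only because some library lacked a single peak of 5 kb. In short regions the shorter domain thus came with a lower rank. In the 51 members of 5 kb it did not: 14 ranked lower and 15 higher, and the median difference was -0.09 points. The p-value against the control showed the same for members of 2 kb, of which 77.3% and 80.3% reached the ceiling of the −log10 scale (15.95) in the 5M libraries and 47.6% and 45.9% in the 60M libraries. In regions of 2 kb that were neither narrower nor wider, 87.1% and 86.8% reached it at 5M and 90.0% and 90.4% at 60M.

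**Figure D4:**
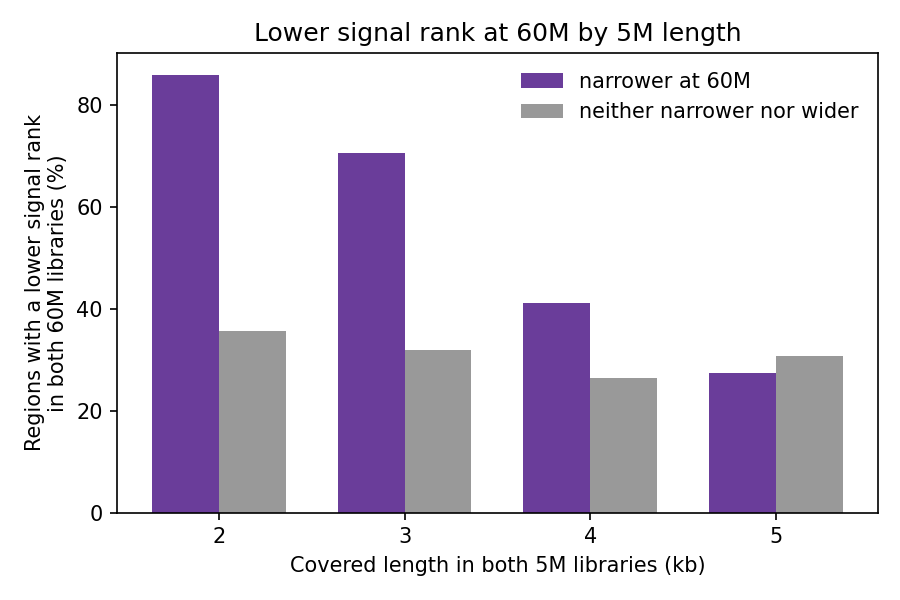
Share of regions whose signal rank is lower in both 60M than in both 5M libraries (vertical axis, %) by covered length in both 5M libraries (horizontal axis, kb), for narrower regions (purple, n = 229, 272, 141 and 51) and regions neither narrower nor wider (grey, n = 10665, 6172, 1923 and 75). The share among narrower regions is 86.0% at 2 kb and 27.5% at 5 kb, where that of the grey regions is 30.7%. Grey regions of 5 kb are only those in which some library lacked a single 5 kb peak, so that pair is not a like comparison.

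Members thus ranged from regions that fell among the weakest peaks at 60M to regions of nearly the same rank at both ages. The mean rank was lower by more than 20 points in 148 members (19.6%), against 1.22% of the regions neither narrower nor wider. It lay within 2 points in 191 (25.3%), against 36.7%. The fall between the lowest 5M and the highest 60M rank was greatest on chromosome 3 (101969000 to 101970999), a region chosen after its values were seen. It covered 2 kb in both 5M libraries and 1 kb in both 60M libraries, with signal maxima of 341.3 and 358.6 at 5M and 64.1 and 41.2 at 60M. Its rank went from 60.6 and 63.2 to 4.56 and 1.08, from above the middle of the regions to near the bottom. Next came 2 regions of 3 kb, also chosen after their values were seen. On chromosome 10 (120561000 to 120563999) the maxima were 339.7 and 319.3 at 5M and 76.4 and 64.6 at 60M. On chromosome 11 (69290000 to 69292999) they were 331.1 and 362.4 at 5M and 84.9 and 33.4 at 60M, and both edges were lost. A mean rank that was higher at 60M by more than 10 points occurred in 7 members (0.93%), against 5.20% of the regions neither narrower nor wider. The clearest of these, again chosen after its values were seen, lay on chromosome 18 (76382000 to 76384999), which was 1 kb shorter while its maxima were 82 and 83.8 at 5M and 161.3 and 189.4 at 60M.

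The 12 members with the largest loss of covered length held both kinds. The largest was a 6 kb region on chromosome 2 (166926000 to 166931999). It was 1 unbroken peak of 6 kb in both 5M libraries, 2 peaks of 1 and 2 kb in 60M library 1, and a single 1 kb peak in 60M library 2. Its signal maxima were 524 and 526.5 at 5M and 452.9 and 244.1 at 60M. The 60M libraries thus differed from each other in how much of the domain was left. On chromosome 4 (135637000 to 135641999) both 5M libraries covered 5 kb and both 60M libraries the lower 2 kb, with maxima of 387.7 and 385.9 against 228.5 and 278.8. On chromosome 5 (135033000 to 135036999) both 5M libraries covered 4 kb and both 60M libraries the uppermost 1 kb, with maxima of 235.8 and 255 against 253.9 and 168.2. These 2 regions had the same length in both replicates of each age. In the one on chromosome 5 the maxima of the ages overlapped. Its ranks were 46.79 and 49.98 at 5M and 46.12 and 28.22 at 60M.

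Of the same 12, a region on chromosome 3 (54435000 to 54439999) was shorter and weaker at 60M, with 60M libraries that were far apart. The 5M libraries covered 4 and 5 kb with maxima of 652.9 and 639.4, and the 60M libraries 2 and 1 kb with maxima of 334.8 and 44. Only its upper end was still listed, and in 60M library 2 the peak had a −log10 p of 4.09, close to the lowest value of the lists (3.01). On chromosome 15 (97084000 to 97087999) a 4 kb domain lost both ends, with 1 and 2 kb left and maxima of 419.3 and 363 at 5M against 78.7 and 232.8 at 60M.

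Other regions among the 12 were shorter at 60M with similar signal maxima. On chromosome 2 (68308000 to 68313999) a 6 kb peak was reduced to its lower 3 and 4 kb, with maxima of 776.3 and 715.8 at 5M against 742.3 and 698.8 at 60M, among the strongest of all members. On the same chromosome (154374000 to 154378999) a 5 kb peak was reduced to 3 and 2 kb, with maxima of 463.9 and 436.1 against 471.2 and 469.9. In the former the maxima of the ages overlapped, and in the latter both 60M values were slightly above both 5M values. On chromosome 14 (15177000 to 15184999) a peak of 7 and 8 kb was cut to its lower 4 and 5 kb, with maxima of 575.2 and 561.6 against 551.6 and 492.2. Here both 60M maxima lay below both 5M maxima, and the ranks were 83.3 and 85.4 against 83.1 and 80.9.

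Bins inside the region were lost in 4 of the 12, counting the region of 6 kb that leads them. On chromosome 11 (98843000 to 98848999) both 5M libraries had 1 peak of 6 kb, and both 60M libraries had a 2 kb peak at the lower end (maxima 591.4 and 561.5) and a weaker one at the upper end (152.1 and 168.9). On the same chromosome (101499000 to 101506999) both 60M libraries had a 4 kb peak, a gap and a last 1 kb peak, where 5M library 2 had 1 peak of 8 kb. This region was already broken in 5M library 1, into peaks of 1 and 6 kb. On chromosome 5 (149557000 to 149564999) peaks of 7 and 8 kb were cut to the upper 4 kb in both 60M libraries, and 60M library 2 had a further 1 kb peak below. The lowest mean percentile of the 12 was on chromosome 9 (115507000 to 115512999), where peaks of 6 and 5 kb were cut to 3 and 2 kb, and the maxima were 97 and 139.3 against 111.9 and 107.1. These maxima overlapped between the ages, while the ranks were 17.03 and 27.42 at 5M and 15.8 and 14.04 at 60M. In all, 9 of the 12 had lower ranks in both 60M libraries. The 9 include this region and the one on chromosome 5 (135033000 to 135036999).

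**Figure D5:**
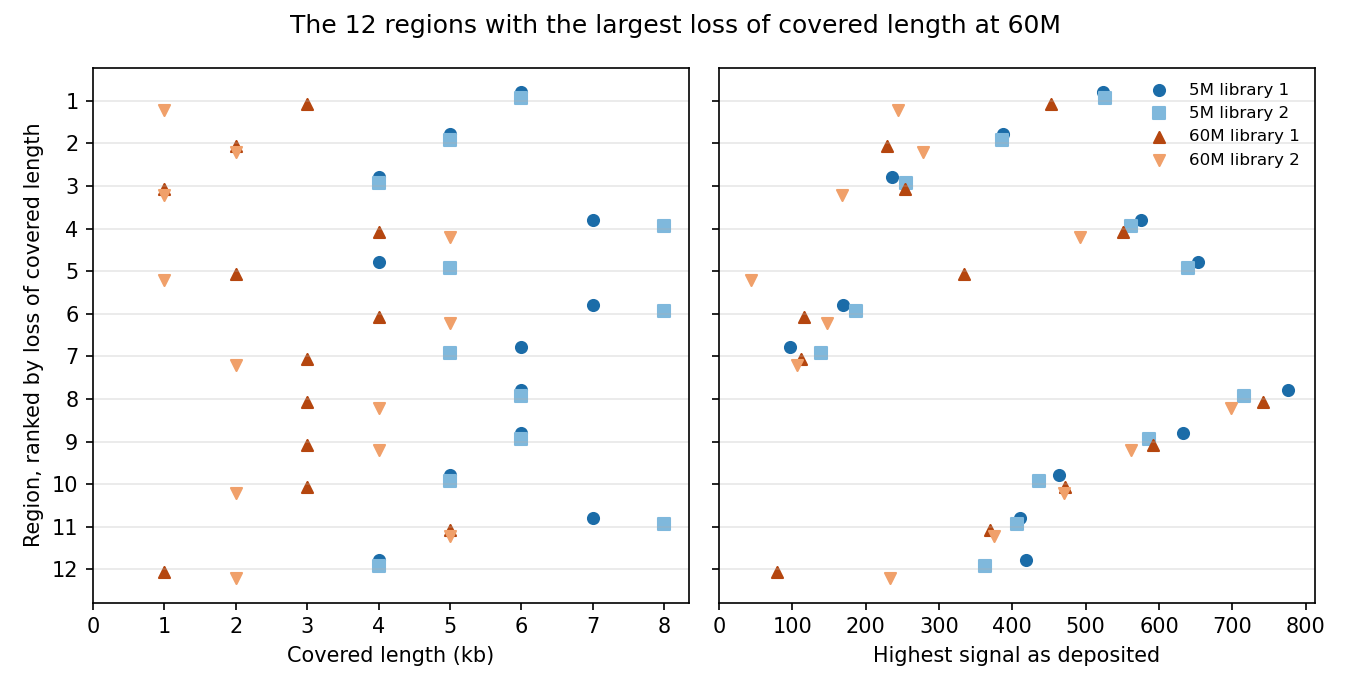
Covered length in kb (left) and highest signal as deposited (right) in each library for the 12 regions with the largest loss, ranked from 1 (chromosome 2, 166926000 to 166931999) down the vertical axis. The 60M symbols lie left of the 5M symbols for length in all 12, as the rule requires, while for signal they overlap in some, such as region 8 with 776.3 and 715.8 at 5M and 742.3 and 698.8 at 60M.

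The 12 members with the highest signal lost bins at an edge. They were picked by their mean percentile over all 4 libraries, which ran from 98.5 to 99.9, so similar signal at both ages follows from the choice. In 10 of the 12 the loss was 1 kb. The strongest was on chromosome 17 (88462000 to 88466999), with 5 kb in both 5M libraries and 4 kb in both 60M libraries, and maxima of 838.6 and 797.6 against 803.3 and 736. On the same chromosome (65960000 to 65964999) the maxima were 812.4 and 739.3 against 793.5 and 700.9, at the same lengths. Both regions lost their lower edge, as did 9 of the 12. On chromosome 6 (4852000 to 4856999) 5 kb became 3 kb in both 60M libraries, with maxima of 737.9 and 708.6 against 736.4 and 680.8. The region on chromosome 2 (68308000 to 68313999) was the only one in both sets of 12.

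The narrower regions were spread over all 20 chromosomes. Their share of the regions on a chromosome was lowest on the X chromosome, with 16 of 889 (exact 95% interval 1.03 to 2.91%), and highest on chromosome 18, with 31 of 938 (3.30%, 2.26 to 4.66%). The interval of each chromosome held the overall share of 2.54%. Of adjacent members, 3 pairs were within 10 kb of each other and 38 pairs within 100 kb. No count for an equal number of other regions was made, so whether members lie close together was not tested.

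Members had H3K4me3 regions of a single age within 10 kb at shares close to those of all regions. A region listed at 5M only lay within 10 kb of 51 members (6.76%, exact 95% interval 5.08 to 8.80%), against 6.40% of all 29639 regions. A region listed at 60M only lay that close to 32 members (4.24%, 2.92 to 5.94%), against 3.70%. Either kind lay that close to 82 members (10.9%, 8.74 to 13.3%), against 9.81%. Within 5 kb it was 49 members (6.50%, 4.85 to 8.50%), an interval that holds the 4.93% of all regions, and 6.69% of the regions wider at 60M. Split by age, a 5M-only region lay within 5 kb of 27 members (3.58%, 2.37 to 5.17%), against 3.05% of all regions. A 60M-only region lay within 5 kb of 23 members (3.05%, 1.943 to 4.54%), against 1.94% of all regions, just below the interval. Among members that lost 1 edge and had a 5M-only region within 10 kb on 1 side, it was on the lost side in 21 and on the kept side in 24. Another narrower region was within 10 kb of 7 members (0.93%), against 1.38% of all regions. The nearest other H3K4me3 region lay at a median of 8 kb, against 9 kb.

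With the full lists, the frequency of H3K27me3 within 10 kb of the members did not differ between the ages beyond the spread between libraries. The rule excludes overlap with this mark but not its presence nearby. An H3K27me3 peak lay within 10 kb of 10.7% and 13.9% of the members in 5M libraries 1 and 2, and of 12.9% and 10.3% in 60M libraries 1 and 2. The ages overlapped, with means of 12.3 ± 2.25% and 11.6 ± 1.78% (SD, n = 2), a difference of 0.729 percentage points. The exact two-sided permutation test over the libraries gave p = 0.667, and 2 libraries against 2 cannot go below 0.333. Over all 29639 regions the shares were 12.1% and 15.1% at 5M and 16.6% and 13.8% at 60M. The full H3K27me3 lists covered 25.8 and 34.9 Mb at 5M and 29.5 and 25.4 Mb at 60M. The members' shares ranked in the same order as these totals, and the shares over all regions did not. Whether list size sets the shares was not tested. The sign of the members' difference turned within 50 kb (-0.663 points), and when H3K4me3 5M library 1 (-0.417), 60M library 1 (-0.437) or 60M library 2 (-0.166) was left out. It also turned without H3K27me3 5M library 2 (-0.842) or 60M library 2 (-0.594).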

How the data were processed

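The submitters' processing notes list build mm10 and the tools Bowtie 1.1.2 and CASAVA 1.8.4. For the peak caller, the name was not given in the sources used here. Per the labels' protocols, chromatin was sonicated with or without MNase, which is not specified by library. The authors deposited 1 peak list per library, with borders in 1 kb bins, a maximum signal, −log10 p-values alone and against the control, and q-values, per the file headers. Peaks ran past mm10 ends on 9 chromosomes (1331 peaks). Against mm9 lengths (GenomeInfoDb 1.38.1) 2 peaks on 1 chromosome did, so no gene table or sequence of GRCm38.p6 was joined.

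The deposited summit was not used. In peaks of 3 kb at the ceiling of the −log10 p it was the first bin in 65.3% and the third in 0.456%, against 23.5% and 24.3% below the ceiling. The deposited signal hardly depended on it: in peaks of at least 3 kb with equal borders at 5M, the median absolute log2 ratio between libraries, after centring on its median, was 0.048 with different summit bins and 0.039 with the same.

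Python 3.11.15, numpy 2.4.6, pandas 2.3.3, scipy 1.17.1 and matplotlib 3.10.9 were used. The region code was tested on simulated lists. Intervals are exact binomial (Clopper-Pearson, 95%). Members, lists and tests were chosen with earlier results of these data known. The named regions were the 12 members with the largest mean loss (ties by the gap between ages, then mean percentile) and the 12 with the highest mean signal percentile. Alternatives varied merging, thresholds, list lengths, the step, the exclusions, the distance and the libraries. Ranking among 1 set of regions, leaving out H3K27me3 libraries and counting edges only in members with room for a gap were added after seeing the data. Replicate numbers did not pair the samples.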

Additional observations from a re-analysis of the deposited data

How the results depend on the processing

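The count of 754 was 760 with merging within 1 kb, 750 with a −log10 p of at least 5, 744 at equal list lengths and 747 by the widest peak. In these settings 750, 708, 732 and 745 of the 754 regions were still called. The count was 864 with H3K27me3 regions kept, 766 with broad regions kept and 55 with a step of at least 2 kb. With 1 library left out it ran from 758 to 1715. Leave-one-out ranges were 1.11 to 1.12 kb for the length difference, 96.7 to 98.6% for edge-only loss (95.8% over members with room for a gap), 9.70 to 14.9 points for the signal percentile, 11.2 to 14.4% for neighbours of 1 age and 4.11 to 6.89% for the highest chromosome share. The percentile difference was 8.79 points at equal list lengths and 9.73 points within 1 set of regions. Neighbours of 1 age were near 6.50% of members within 5 kb and 39.3% within 50 kb, which follows from the distance. The H3K27me3 difference ran from -0.842 to 2.43 points with 1 library left out. It was negative without H3K4me3 5M library 1 (-0.417), 60M library 1 (-0.437) and 60M library 2 (-0.166). It was also negative without H3K27me3 5M library 2 (-0.842) and 60M library 2 (-0.594), and within 50 kb (-0.663). It stayed positive within 5 kb (1.79), with merging within 1 kb (0.724) and at equal list lengths (1.55, permutation test p = 0.333, the smallest possible). The same held without H3K4me3 5M library 2 (0.557), H3K27me3 5M library 1 (2.43) and H3K27me3 60M library 1 (1.69). The cause of these changes was not tested. With a replicate block (60M library 1 below 5M library 1, and 60M library 2 below 5M library 2) 778 regions were called. The length differences between libraries 1 and 2 at the 2 ages correlated at 0.00833 across 29639 regions, so the numbers are not a pairing. Depth is unknown, and an unlisted bin may still carry H3K4me3 below the calling threshold.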
